A study of Mus musculus with 6 samples.

Results

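Ion channel subunit genes were read across a comparison of slow-cycling, label-retaining chondrocytes (LRCs) with non-label-retaining chondrocytes (non-LRCs) of the mouse growth plate. Members were all genes of the count table whose symbol belongs to the Kcn potassium channel families, the calcium channel families Cacna, Cacnb and Cacng, the Scn sodium channel family, the Trpc, Trpm and Trpv families, Piezo1 and Piezo2, the Clcn family or the Ano family. The symbols picked 175 of the 23159 genes. Of these, 173 encode channel subunits or close relatives, and 2 matched by their letters alone, the long non-coding RNA *Kcnq1ot1* and *Trpc4ap*, which encodes a protein that binds a TRP channel. The choice rests on symbols and not on a measured value, although the families were picked with earlier results of these data known. *Piezo1* and *Piezo2* were listed under their older symbols *Fam38a* and *Fam38b*, so neither is a member, and their values are given only beside the other mechanically gated channels.

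RNA of 6 libraries was sequenced, from 3 experiments that each gave 1 LRC library and 1 non-LRC library. All cells came from P49 mice that carried 2 copies of each of 4 alleles, named in the labels as Peli2(Col2a1-tTA/Col2a1-tTA) for the doxycycline-sensitive activator, Col1a1(TRE-H2B-GFP/TRE-H2B-GFP) for the nuclear label, Col2a1-creER/Col2a1-creER for the tamoxifen-dependent recombinase and R26R(tdTomato/tdTomato) for its red reporter, and both groups had doxycycline from P21 to P49 and tamoxifen at P46 and P47. Doxycycline stops the H2B-GFP label from being made, so cells that divide dilute it, and LRCs were the tdTomato+ cells with a high remaining signal, while non-LRCs had a middle to low signal. The *Col2a1* promoter drives both the tTA and the creER, so only cells in which it was active were sorted, from a CD45-negative fraction, and the cells of several littermates were pooled in each experiment. About 10000 LRCs and about 50000 non-LRCs went into a library. Since bulk libraries were made, fewer cells that express a gene and less RNA of it per cell cannot be told apart.

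Ion channels are membrane proteins with a pore that opens to voltage, calcium, stretch, temperature or ligands, and they set the membrane potential, the entry of calcium and the volume of a cell. Pore-forming alpha subunits decide which ion passes, and auxiliary beta, gamma or alpha2delta subunits modify gating and transport to the membrane. Chondrocytes are not excitable, but they live in an osmotically dense and compressed matrix, and in cartilage TRPV4 and the Piezo channels are known for carrying calcium in response to swelling and load. Mutations in TRPV4 cause skeletal dysplasias in humans.

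Total counts were between 18943789 and 129559872 per library, with the lowest total in the LRC library of experiment 2. In that library 3 counts, the limit that a count of 0 allows, were worth 0.143 CPM (the unit of TMM-normalized level, counts scaled to a common library size), against 0.0257 to 0.0785 CPM in the other 5 libraries. These limits cover counting error only, since the amplified reads carry no molecular identifiers. Of the 13728 genes that passed a filter on low counts, 12.6% had 0 counts in that library. The members that passed were 90, made up of 88 channel subunit genes and the 2 genes matched by their letters alone, and 25 of them, or 27.8%, had 0 counts there, against 0 to 7 of the 90 in each of the other libraries. The 90 members were also at lower levels, with a median over genes of 2.08 CPM, where the median of all genes tested was 14.1 CPM. Beside the main results that rest on the LRC library of experiment 2, the value without that experiment is given. Chondrocyte markers such as *Col2a1* and *Acan* summed to between 75201 and 214394 CPM in each library.

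A small number of channels made up most of the channel RNA. When levels were expressed as CPM per kb of exon, so that genes of different length can be compared, *Trpv4* was the highest of the 173 genes in each of the 6 libraries. It reached 193, 120 and 161 CPM per kb in LRCs of experiments 1, 2 and 3 and 161, 94.7 and 129 CPM per kb in non-LRCs. Every library thus lay above the highest value of the next gene, *Kcnk5*, at 48.8 CPM per kb. *Trpv4* alone took 37.9% to 47.8% of the summed CPM per kb of these 173 genes, the first 5 genes took 70.2% to 75.1%, and the first 10 took 85.3% to 87.2%.

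Among the 173 genes, the 3 that followed *Trpv4* were potassium channels of 3 classes. *Fam38a* (*Piezo1*) is not among the 173, and its mean per kb, given further on, lay above that of *Kcnk5*. *Kcnk5*, a pH-sensitive two-pore-domain potassium channel, had a mean level of 38.1 CPM per kb over the 6 libraries, *Kcna6*, a voltage-gated potassium channel, 22.2 CPM per kb, and *Kcnma1*, the pore of the large-conductance calcium-activated potassium channel, 19.8 CPM per kb. Lower in the order came *Clcn4-2*, an endosomal chloride-proton exchanger, at 12.9 CPM per kb, and *Trpm7*, a magnesium-permeable channel fused to a kinase, at 11.5 CPM per kb. From *Kcnk5* down to *Ano6*, the gene at rank 12, the 6 values of each gene overlapped those of its neighbour in the order. Ranges over all libraries thus did not separate neighbours, but genes further apart could separate. The lowest value of *Kcnk5*, 20.1 CPM per kb, lay above the highest of *Clcn4-2*, 16.0 CPM per kb. Within each library *Kcnk5* also lay above *Kcna6*. In all, 7 genes had a mean of 10 CPM per kb or more, 16 had 1 to 10, 48 had 0.1 to 1, 73 were below 0.1 but not 0, and 29 had no count in any library.

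**Figure D1:**
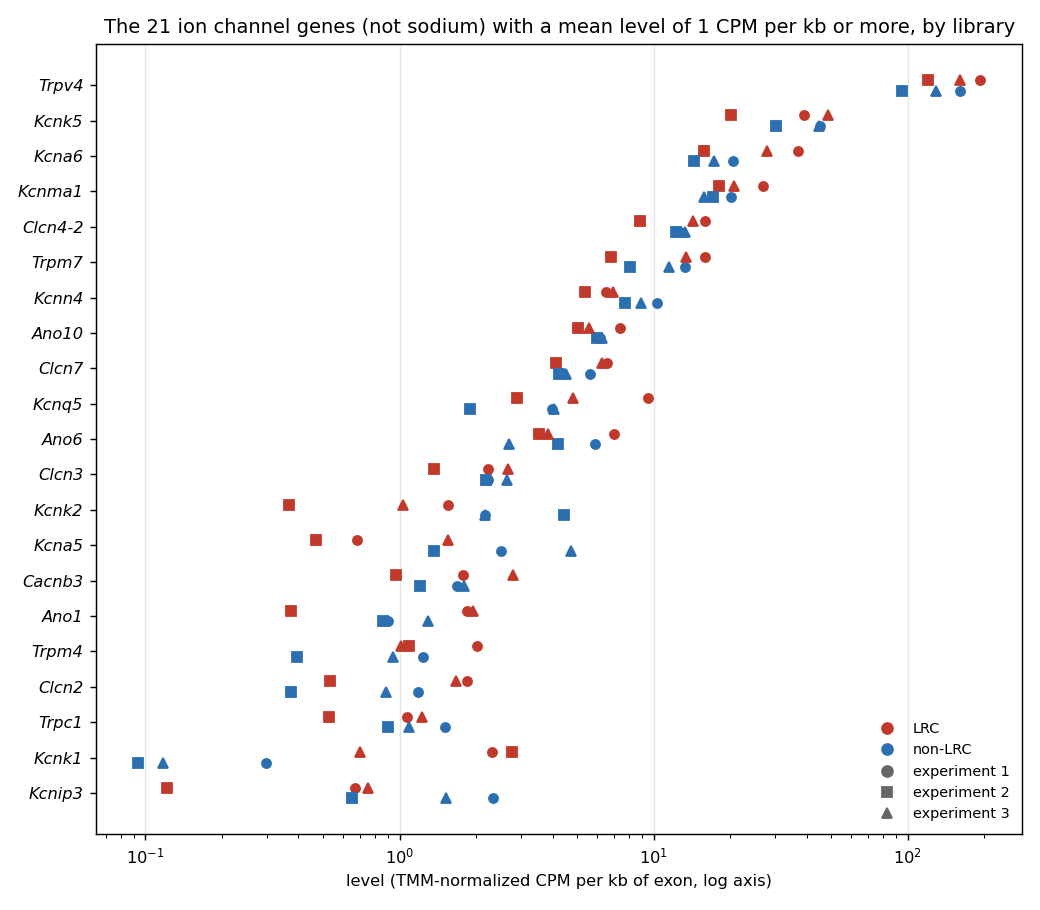
Levels of the channel genes other than sodium channels with a mean of 1 CPM per kb or more, as TMM-normalized CPM per kb of exon on a log axis, 1 point per library, with colours for groups and marker shapes for experiments. *Trpv4* lies between 94.7 and 193 CPM per kb, above every value of the other genes, and for most genes the LRC and non-LRC points interleave.

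The genes with no count in any library were 10 voltage-gated potassium alpha genes, 4 two-pore-domain potassium genes, 4 calcium gamma genes, 3 sodium alpha genes, 2 inward rectifier genes and 6 genes from 6 other classes. Of the 85 members that did not pass the filter, 31 had at most 3 counts in any library, and in 1 (1.18%) every LRC library lay above and in 5 (5.88%) below every non-LRC library, against 0.382% and 1.57% of all genes under the filter. These shares take in genes with 0 counts in all libraries, whose groups cannot separate. Such genes were 29 of the 85 members but 5324 of the 9431 genes under the filter, so the shares are not on an equal footing. The inward rectifiers were the class with the fewest members above the filter in proportion, 2 of 15, and their counts summed to between 0.143 and 3.32 CPM per library. By contrast 4 of 4 calcium beta genes, 6 of 7 TRPC genes and 7 of 8 TRPM genes passed.

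The comparison of the groups asked which channels differ between cells that had retained the label and cells that had diluted it. The counts were tested with edgeR's quasi-likelihood test with the experiment as a block and Benjamini-Hochberg adjustment over all 13728 genes, and a gene was called at an adjusted p below 0.05 with a change of at least 2-fold. Only 1 of the 90 members tested (1.11%) was called, the channel gene *Cacna1e*, which was upregulated in LRCs, while 1.21% of all genes were called. The share called higher was 0.874% and the share called lower 0.335% of all genes, and no member was called lower. At an unadjusted p below 0.05, 7 members (7.78%), all of them channel genes, were higher and 6 (6.67%), again channel genes, lower in LRCs, against 8.89% and 9.53% of all genes. The median log2 fold change of the 90 members was -0.00 and that of all genes -0.10. All of these shares were at or under those of all genes but for the 1 gene called higher.

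Directions within experiments were counted as well. Of the 90 members tested, 17 (18.9%) were higher in LRCs in all 3 experiments, where 20.4% of all genes were. Counted as lower in all 3 were 23 (25.6%), against 26.4% of all genes. Both counts of lower genes took a pair with 0 counts in both libraries of experiment 2 as lower. Among the 23 this held for *Kcnab1* and *Trpc4*, which were lower only in experiments 1 and 3. In 8 of the 90 (8.89%) every LRC library lay above every non-LRC library, against 8.41% of all genes, and in 10 (11.1%) every LRC library lay below, against 10.3%. DESeq2 with the same block called 9 of 95 members (9.47%) and 5.81% of all genes, and limma-voom with the block called 7 of 90 and 4.52% of all genes. Without the block, edgeR called 0 of 90 members and 1 of all genes.

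**Figure D2:**
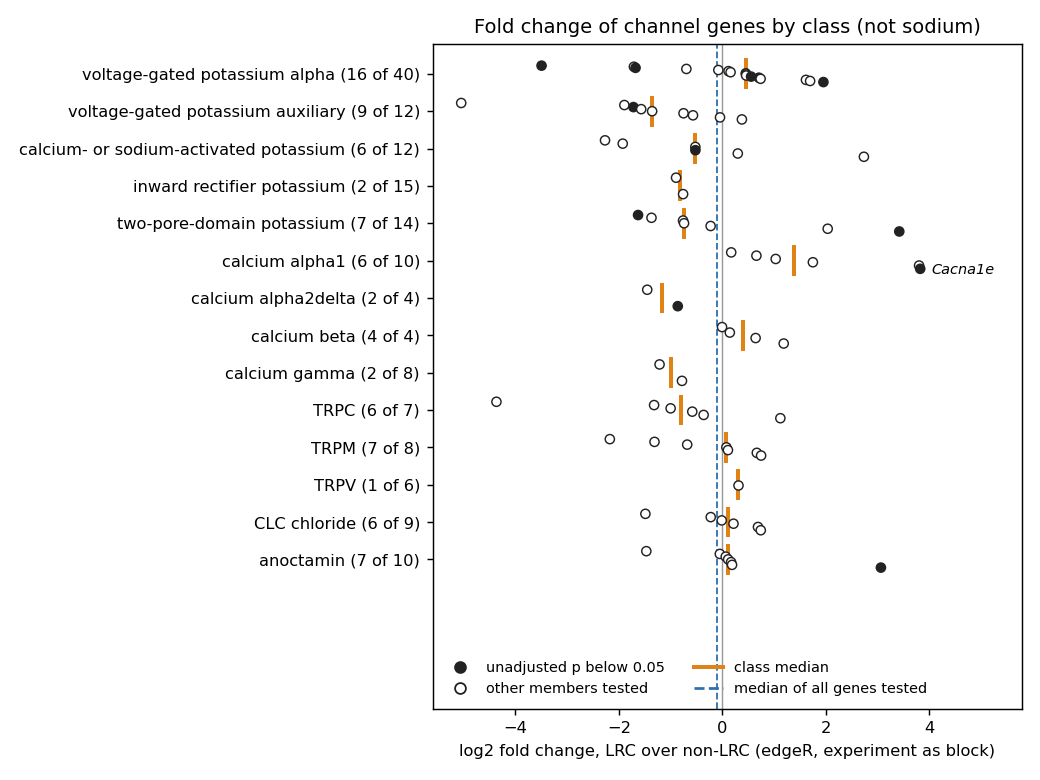
Log2 fold change (LRC over non-LRC, edgeR with the experiment as a block) of each channel gene tested outside the sodium channel classes, by class, with the number tested of the members of each class beside its name. Filled points had an unadjusted p below 0.05, bars are class medians, and the dashed line is the median of all genes tested at -0.10. Points of most classes lie on both sides of 0, and *Cacna1e* is at 3.82.

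Voltage-gated calcium channels held the called gene. *Cacna1e* encodes the pore of the R-type calcium channel Cav2.3, best known from neurons and endocrine cells, and lies on chr1:154390731-154884501 (GRCm38, minus strand). In LRCs it had 711, 220 and 111 counts in experiments 1, 2 and 3, and in non-LRCs 42, 33 and 8. These corresponded to 6.09, 10.5 and 2.58 CPM in LRCs and 0.407, 0.864 and 0.161 CPM in non-LRCs. Each LRC library lay above each non-LRC library, and the difference was about the same in every pair. Its level was 14.2-fold higher in LRCs (95% interval 5.25 to 38.3), a log2 fold change of 3.82 with a standard error of 0.59 and an adjusted p of 0.0489 by edgeR. The adjusted p was close to the threshold and rose above it without experiment 1 (0.274), without experiment 3 (0.111), without the block (0.229) and with a correction for GC content and length (0.0544), at log2 fold changes between 3.70 and 3.78. Without experiment 2 the log2 fold change was 3.94 with an adjusted p of 0.0141, and by DESeq2 the adjusted p was 1.25e-09.

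The RefSeq window around the start of *Cacna1e* is shown because it belongs to the one gene called, with those of *Kcna5* and *Kcna6*, potassium channel genes of one cluster described further on that had opposite directions. Each window holds 250 bases before and 50 bases after the start (GRCm38.p6, minus strand, printed 5′ to 3′ along the gene), at chr1:154725871-154726170 for *Cacna1e*, chr6:126535506-126535805 for *Kcna5* and chr6:126740625-126740924 for *Kcna6*. Capitals mark the dinucleotide CG, which reads the same on both strands.
Cacna1e: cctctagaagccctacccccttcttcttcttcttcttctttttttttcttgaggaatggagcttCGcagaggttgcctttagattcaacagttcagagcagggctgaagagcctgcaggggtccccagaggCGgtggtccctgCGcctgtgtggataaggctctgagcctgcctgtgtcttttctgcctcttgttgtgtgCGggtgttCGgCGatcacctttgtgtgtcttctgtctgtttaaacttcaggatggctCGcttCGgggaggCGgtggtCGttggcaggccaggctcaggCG
Kcna5: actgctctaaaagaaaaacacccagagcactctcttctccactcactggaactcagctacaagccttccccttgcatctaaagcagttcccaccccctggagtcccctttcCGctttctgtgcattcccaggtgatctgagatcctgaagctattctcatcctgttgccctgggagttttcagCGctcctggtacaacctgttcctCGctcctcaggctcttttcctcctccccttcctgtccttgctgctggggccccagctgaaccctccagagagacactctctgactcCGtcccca
Kcna6: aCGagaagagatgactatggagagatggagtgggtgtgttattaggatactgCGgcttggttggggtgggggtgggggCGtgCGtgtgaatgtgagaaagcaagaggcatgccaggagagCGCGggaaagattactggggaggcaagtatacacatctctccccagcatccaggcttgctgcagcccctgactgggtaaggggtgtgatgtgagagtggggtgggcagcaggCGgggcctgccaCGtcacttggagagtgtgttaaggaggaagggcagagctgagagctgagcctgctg
The windows hold 11, 4 and 8 CG, where the median of all 32851 RefSeq windows was 7 and 94.6% of them held at least 1. At least as many CG as in *Cacna1e*, *Kcna5* and *Kcna6* were present in 41.4%, 68.6% and 48.7% of all windows. The start used by RefSeq for *Cacna1e* lies inside the longer GENCODE gene, and a start cannot be read from counts per gene.

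Per kb of exon, *Cacna1e* itself was at a low level, with a mean of 0.136 CPM per kb over the 6 libraries, against 0.163 for *Cacna1c*. The other pore genes of calcium channels were at low levels too and did not pass the test. All 6 calcium alpha1 genes tested had a fitted log2 fold change above 0, with a median of 1.39, but only *Cacna1e* was higher in all 3 experiments. *Cacna1c*, the L-type channel Cav1.2 and the highest of the class per kb, had 3.19, 2.25 and 4.86 CPM in LRCs and 5.49, 1.18 and 3.72 CPM in non-LRCs. Its groups overlapped, with a log2 fold change of 0.17 (95% interval -1.30 to 1.65). *Cacna1g*, a T-type channel, had 161, 33 and 68 counts in LRCs and 196, 0 and 3 in non-LRCs. Its fitted log2 fold change of 3.80 thus came from experiments 2 and 3, and its unadjusted p was 0.130.

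None of the auxiliary calcium channel subunits tested, 2 alpha2delta, 4 beta and 2 gamma genes, was called. *Cacna2d1*, the alpha2delta subunit that brings calcium channels to the membrane, had 4.96, 9.65 and 8.63 CPM in LRCs and 14.0, 15.7 and 11.3 CPM in non-LRCs. The groups did not overlap and each pair was lower in LRCs, with a log2 fold change of -0.86 ± 0.34 (SE) and an adjusted p of 0.262. *Cacnb1*, a beta subunit, had 3.20, 4.16 and 3.82 CPM in LRCs against 1.57, 1.41 and 1.93 CPM in non-LRCs. Its groups did not overlap either, with an unadjusted p of 0.0950. *Cacnb3*, the beta subunit with the highest level per kb, had 7.42 ± 3.69 CPM (SD, n = 3) in LRCs against 6.24 ± 1.25 CPM in non-LRCs, which overlapped.

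*Cacng1* is the gamma subunit of the calcium channel of skeletal muscle. It had 0.625, 1.15 and 0.186 CPM in LRCs and 1.21, 1.20 and 1.25 CPM in non-LRCs, with an adjusted p of 0.601. The groups did not overlap, by a narrow margin in experiment 2. The 8 skeletal muscle markers summed to 12.5 to 24.2 CPM in LRCs and 24.3 to 43.3 CPM in non-LRCs, with *Ckm* and *Myh1* at or near 0 in all libraries, and their part in the value of *Cacng1* was not tested. The muscle calcium channel gene *Cacna1s* and the muscle chloride channel gene *Clcn1* had at most 17 counts and 0 counts in any library.

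Among the sodium channel genes, *Scn2a1*, a sodium channel of neurons, had 1.29, 3.30 and 1.91 CPM in LRCs and 0.213, 0.812 and 1.13 CPM in non-LRCs, which did not overlap, at an unadjusted p of 0.0852. The 9 markers of neurons and glia summed to 84.9 to 236 CPM in LRCs and 136 to 286 CPM in non-LRCs, most of it from *S100b*, which chondrocytes also express, at 78.4 to 221 CPM and 120 to 273 CPM. *Tubb3* had 5.94 to 16.3 CPM over the 6 libraries, *Snap25* and *Syt1* at most 0.256 CPM, and *Elavl4* was at 0. The part of these cells in the value of *Scn2a1* was not tested.

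**Figure D3:**
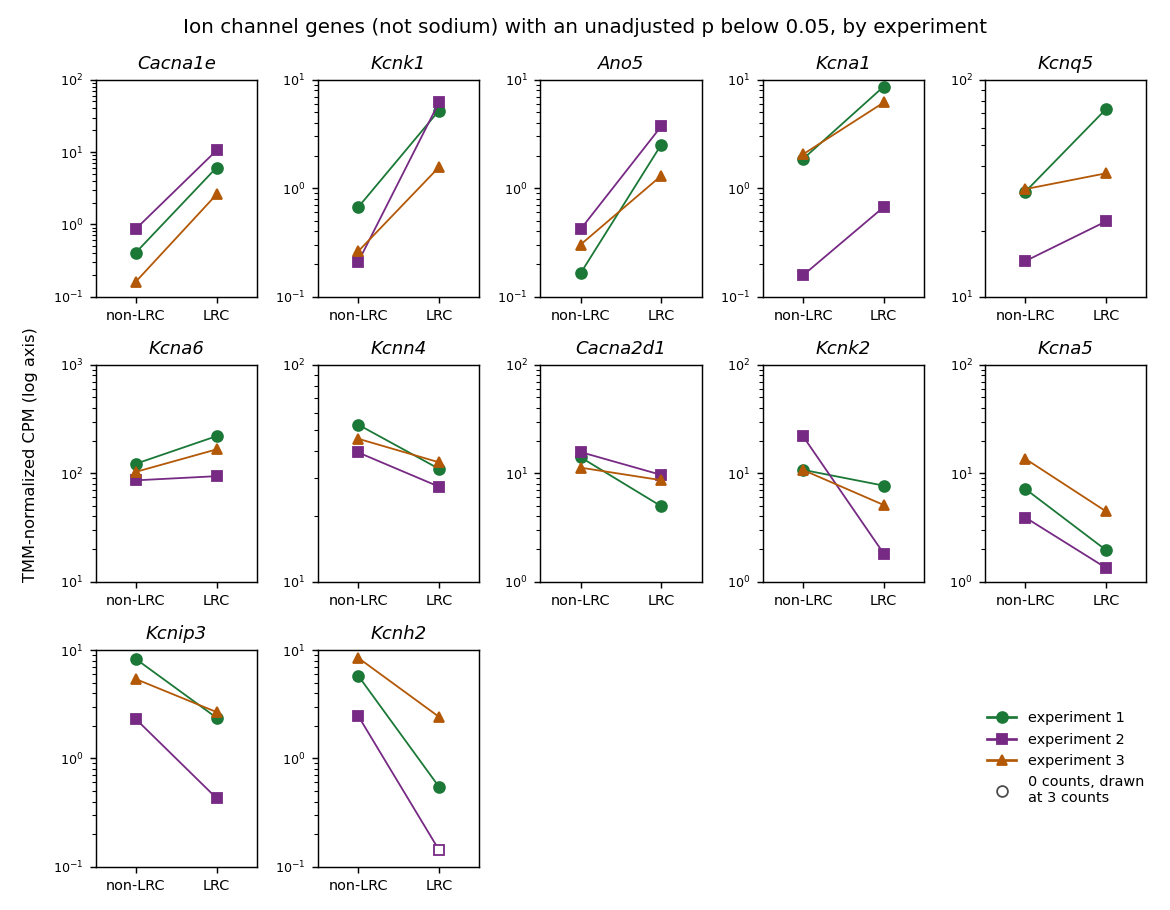
TMM-normalized CPM on a log axis of the 12 channel genes other than sodium channels with an unadjusted p below 0.05, in the non-LRC and LRC library of each experiment, which a line joins. The 6 genes from *Cacna1e* to *Kcna6* are higher and the 6 genes from *Kcnn4* to *Kcnh2* lower in LRCs in all 3 experiments, and the open point marks 0 counts, drawn at the value of 3 counts.

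Voltage-gated potassium channels had members on both sides of 0, and none passed the test. The alpha subunits form the pore that repolarizes the membrane, and of 40 alpha genes 16 were tested, with 11 fitted higher and 5 lower in LRCs. None was called by edgeR with the block, 3 (18.8%) had an unadjusted p below 0.05 with a higher level and 2 (12.5%) with a lower level, where 8.89% and 9.53% of all genes had. *Kcna6* (Kv1.6), the highest of the class per kb, had 220, 94.0 and 166 CPM in LRCs and 122, 86.1 and 103 CPM in non-LRCs. It was higher in each experiment but the groups overlapped, with a 1.47-fold difference (95% interval 1.08 to 2.01) and an adjusted p of 0.192. *Kcnq5* (Kv7.5) had 73.3, 22.2 and 37.0 CPM in LRCs and 30.5, 14.6 and 31.3 CPM in non-LRCs, which overlapped in the same way, with a 1.63-fold difference and an adjusted p of 0.215.

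*Kcna1*, *Kcna5* and *Kcna6* lie side by side on the minus strand of chromosome 6. *Kcna5* is at chr6:126532551-126535412, *Kcna1* at chr6:126640397-126646384 and *Kcna6* at chr6:126708329-126740674, with gaps of 104984 and 61944 bases. *Kcna1* (Kv1.1) had 8.66, 0.669 and 6.17 CPM in LRCs and 1.86, 0.157 and 2.05 CPM in non-LRCs. Experiment 2 was low in both groups, and LRCs were higher in each pair. The difference was 3.87-fold (95% interval 1.48 to 10.2), with adjusted p of 0.154 by edgeR, 0.0232 by limma-voom and 0.0128 by DESeq2.

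*Kcna5* (Kv1.5) had the opposite direction to the other two genes of the cluster. It had 1.95, 1.34 and 4.45 CPM in LRCs and 7.15, 3.90 and 13.6 CPM in non-LRCs. LRCs were lower in each pair, with log2 differences from -1.86 to -1.52. The groups overlapped only in that the LRC library of experiment 3 lay above the non-LRC library of experiment 2. The level was 3.20-fold higher in non-LRCs, a log2 fold change of -1.68 ± 0.42 (SE) with adjusted p of 0.116 by edgeR, 0.0206 by limma-voom and 0.00288 by DESeq2. Without experiment 2 the adjusted p of *Kcna1* was 0.0311 and that of *Kcna5* 0.0235. That of *Kcna6* was 0.0419, at a log2 fold change of 0.77 that is below the 2-fold threshold. Of the exon bases of *Kcna6*, 39.6% overlap a gene on the other strand, *Gm26673*, and the library kit does not keep the strand.

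*Kcnh2* encodes the hERG potassium channel, which repolarizes heart muscle cells. It had 0.548, 0 and 2.42 CPM in LRCs and 5.78, 2.46 and 8.45 CPM in non-LRCs. Each LRC library lay below each non-LRC library, and the library with 0 counts allowed up to 0.143 CPM. The fitted log2 fold change was -3.49 ± 1.11 (SE), with an adjusted p of 0.180 by edgeR and 0.00164 by DESeq2. It was -2.59 with an adjusted p of 0.0334 without experiment 2.

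Of the auxiliary subunits of voltage-gated potassium channels 9 were tested and none was called, and 5 of the 9 had 0 counts in the LRC library of experiment 2. A fitted value below 0 was found for 8 of them (88.9%), where 56.0% of all genes had one. Counted as lower in every experiment were 5 (55.6%), against 26.4% of all genes. Both counts took a pair with 0 counts in both libraries of experiment 2 as lower. Among the 5 this held for *Kcnab1*, which was lower only in experiments 1 and 3. The median log2 fold change of the class was -1.36, and -0.76 without experiment 2. *Kcnip3*, a calcium-binding protein that attaches to Kv4 channels and also acts as a transcriptional repressor, had 2.37, 0.430 and 2.68 CPM in LRCs and 8.26, 2.30 and 5.39 CPM in non-LRCs. It was lower in each pair while the groups overlapped, with a log2 fold change of -1.72 ± 0.58 (SE) and adjusted p of 0.198 by edgeR, 0.0652 without experiment 2 and 0.0357 by DESeq2. *Kcne2* had 0, 0 and 15 counts in LRCs against 107, 31 and 38 in non-LRCs. The groups did not overlap, the adjusted p was 0.338 by edgeR, 0.317 without experiment 2 and 0.0429 by DESeq2, and no fold is given because 2 of the 3 LRC libraries were at 0.

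Calcium-activated potassium channels held a pair of well-expressed pores that carry potassium out of the cell when calcium rises. *Kcnma1* had 456, 306 and 353 CPM in LRCs and 342, 291 and 267 CPM in non-LRCs. It was higher in each pair, but 1 non-LRC library lay within the range of LRCs, with a 1.23-fold difference (95% interval 0.962 to 1.57) and an adjusted p of 0.344. *Kcnn4*, the intermediate-conductance channel KCa3.1, had 33.2, 27.4 and 35.5 CPM in LRCs and 53.0, 39.4 and 45.6 CPM in non-LRCs. Every LRC library lay below every non-LRC library, and *Kcnn4* was 1.43-fold higher in non-LRCs with an adjusted p of 0.201 by edgeR and 0.0943 by DESeq2. The beta subunits of the *Kcnma1* channel had few counts, with *Kcnmb1* at 24, 1 and 3 in LRCs and 99, 9 and 18 in non-LRCs and *Kcnmb2* at 75, 60 and 13 in LRCs and 28, 0 and 6 in non-LRCs. Those 2 subunits lay in opposite directions with no overlap of the groups, at unadjusted p of 0.139 and 0.205.

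Inward rectifiers, which let potassium in more easily than out, were close to the limit of detection. *Kcnj12* and *Kcnj14* were the only 2 tested, both had 0 counts in the LRC library of experiment 2, and their adjusted p were 0.772 and 0.855. Without experiment 2 the fitted log2 fold change of *Kcnj12* went from -0.89 to -0.28 and that of *Kcnj14* from -0.76 to 0.39, with adjusted p of 0.890 and 0.868. *Kcnj13*, the highest of the class per kb, was under the filter with 28, 0 and 9 counts in LRCs against 23, 27 and 9 in non-LRCs.

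Two-pore-domain potassium channels are open at rest and help to set the resting potential, and they had members on both sides of 0. *Kcnk1* (TWIK-1), on chr8:125995170-126030685 (plus strand), had 606, 129 and 67 counts in LRCs against 69, 8 and 13 in non-LRCs. At 5.19, 6.17 and 1.56 CPM each LRC library lay above the non-LRC libraries, at 0.668, 0.209 and 0.262 CPM. *Kcnk1* was 10.7-fold higher in LRCs (95% interval 2.60 to 44.0), a log2 fold change of 3.42 ± 0.83 (SE) with an adjusted p of 0.114 by edgeR, which did not pass. The adjusted p was 0.0363 without experiment 2, 0.0321 by limma-voom and 0.000313 by DESeq2.

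The mechanically gated *Kcnk2* (TREK-1) had 7.69, 1.82 and 5.10 CPM in LRCs and 10.8, 21.9 and 10.7 CPM in non-LRCs. The groups did not overlap and experiment 2 held both the lowest and the highest value. The log2 fold change was -1.63 ± 0.66 (SE) with an adjusted p of 0.270, and it was -0.77 without experiment 2. The most abundant member, *Kcnk5*, had 123 ± 49.7 CPM (SD, n = 3) in LRCs against 137 ± 28.8 CPM in non-LRCs, and the 95% interval of its fold change was 0.632 to 1.16. *Kcnk10* had 1.77, 1.63 and 1.58 CPM in LRCs and 0.387, 0.759 and 0.221 CPM in non-LRCs, which did not overlap, at an unadjusted p of 0.0783.

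TRP channels pass calcium and other cations and respond to stretch, osmolarity, temperature and lipids, and none of the 14 tested had an unadjusted p below 0.05. *Trpv4*, on chr5:114622152-114658421 (minus strand), had 787, 490 and 655 CPM in LRCs and 655, 386 and 525 CPM in non-LRCs. In each pair LRCs were higher, by 0.27 to 0.35 on the log2 scale, and the groups overlapped because the experiments differed more than the groups did. The difference was 1.24-fold (95% interval 0.990 to 1.55) with an adjusted p of 0.288, so a difference larger than 1.55-fold lies outside the interval. *Trpm7* had 136 ± 53.3 CPM (SD, n = 3) in LRCs against 124 ± 29.8 CPM in non-LRCs, with a 95% interval of 0.801-fold to 1.39-fold. *Trpc1*, the highest TRPC gene per kb, had 7.56 ± 2.93 CPM in LRCs against 9.36 ± 2.48 CPM in non-LRCs, and its adjusted p was 0.638.

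A pair of TRPM genes depended on experiment 2. *Trpm3* had 10.8, 0.813 and 9.54 CPM in LRCs and 2.84, 5.42 and 2.60 CPM in non-LRCs, and *Trpm6*, a magnesium channel related to *Trpm7*, had 10.4, 0 and 12.1 CPM in LRCs and 3.87, 1.52 and 4.69 CPM in non-LRCs. For both, experiments 1 and 3 were higher in LRCs and experiment 2 was lower. Their log2 fold changes were 0.67 and 0.11 with adjusted p of 0.792 and 0.977, and without experiment 2 they were 1.90 and 1.40 with adjusted p of 0.0196 and 0.0334. These 2 genes were chosen after their values were seen. The TRPC genes had 4 of 6 tested members at 0 counts in the LRC library of experiment 2, and their median log2 fold change was -0.79 with and -0.43 without that experiment.

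Piezo channels open on stretch of the membrane. *Fam38a*, the older symbol of *Piezo1*, had 1054, 158 and 513 CPM in LRCs and 622, 149 and 354 CPM in non-LRCs, and *Fam38b*, that of *Piezo2*, had 38.1, 28.2 and 29.7 CPM in LRCs and 16.5, 13.5 and 9.80 CPM in non-LRCs. Both were higher in LRCs in each pair, and only for *Fam38b* did the groups not overlap. *Fam38b* was 2.44-fold higher in LRCs (95% interval 1.67 to 3.58) with an adjusted p of 0.0612 by edgeR, 0.0198 without experiment 2 and 2.96e-05 by DESeq2. *Fam38a* was 1.38-fold higher (95% interval 1.02 to 1.85) with an adjusted p of 0.243, and 24.6% of its exon bases overlap *Ctu2* on the other strand. Per kb of exon, *Fam38a* had a mean of 47.8 CPM over the 6 libraries, where *Trpv4* had 143 CPM, and its 3 experiments differed more than its groups did.

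Chloride channels and exchangers showed no called gene. CLC proteins include plasma membrane chloride channels and the chloride-proton exchangers of endosomes and lysosomes, and the intracellular ones were the abundant members. *Clcn4-2* had 112 ± 32.1 CPM (SD, n = 3) in LRCs against 109 ± 4.53 CPM in non-LRCs, with a 95% interval of 0.715-fold to 1.38-fold. The lysosomal *Clcn7* had 34.5, 21.8 and 33.1 CPM in LRCs and 29.8, 22.4 and 23.9 CPM in non-LRCs, which overlapped. No CLC gene had an unadjusted p below 0.05, and the class had a median log2 fold change of 0.10 over 6 genes.

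Anoctamins comprise calcium-activated chloride channels and lipid scramblases. *Ano5*, mutated in a muscular dystrophy and in a skeletal fragility disorder of humans, lies on chr7:51511029-51598709 (plus strand). It had 295, 78 and 56 counts in LRCs against 17, 16 and 15 in non-LRCs, or 2.53, 3.73 and 1.30 CPM against 0.165, 0.419 and 0.302 CPM. Each LRC library lay above each non-LRC library. The level was 8.37-fold higher in LRCs (95% interval 1.78 to 39.4), with an adjusted p of 0.160 by edgeR, 0.0814 without experiment 2, 0.0237 with at least 10 counts in every library and 0.00571 by DESeq2. *Ano10* and the scramblase *Ano6* were the abundant members, at 35.5 ± 7.35 CPM (SD, n = 3) in LRCs against 36.2 ± 0.701 CPM in non-LRCs for *Ano10*. For *Ano6* the values were 85.4, 43.4 and 47.1 CPM in LRCs and 72.1, 51.6 and 33.0 CPM in non-LRCs, and both genes overlapped between groups.

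Over classes, some medians moved more than others when experiment 2 was left out. In its LRC library 2 of 2 inward rectifiers tested, 2 of 7 two-pore-domain genes and 0 of 2 alpha2delta genes had 0 counts. The voltage-gated potassium alpha genes, with 5 of 16 at 0 there, had a median of 0.46 with and 0.32 without experiment 2. The part of such zeros in the shifts was not tested. The median of the inward rectifiers went from -0.83 to 0.05 and that of the two-pore-domain channels from -0.74 to -0.04 when experiment 2 was left out. The calcium alpha1 genes had 1.39 with and 1.24 without it, and the alpha2delta genes -1.16 with and -0.74 without it. A class had between 1 and 16 tested genes, so such medians describe the genes at hand and were not tested.

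Calls depended on the setting for the members as they did for all genes. Where only genes with at least 10 counts in every library were tested, 3 of 49 members, *Ano5* and *Kcna5* among them, and 3.90% of all genes were called. That filter removed *Cacna1e*, which had 8 counts in a non-LRC library. Without experiment 2, 8 of 111 members and 3.81% of all genes were called, and without experiment 1 or 3 no channel gene was called while 0.254% and 1.59% of all genes were. *Cacna1e*, *Kcna1*, *Kcna5*, *Kcnh2* and *Kcnk1* were among the 6 channel genes called in all of the fit without experiment 2, limma-voom and DESeq2.

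**Figure D4:**
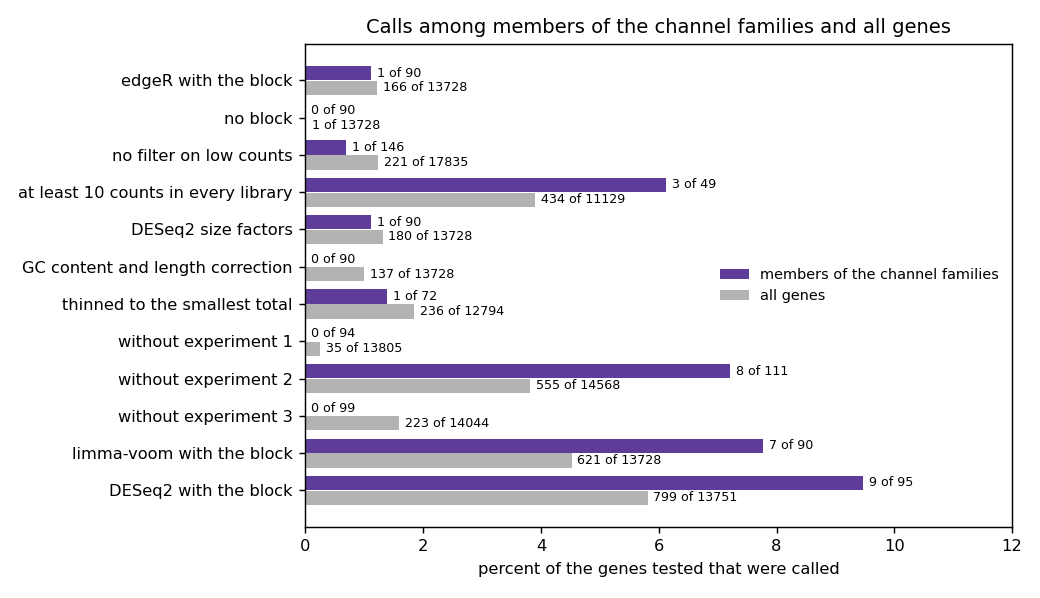
Percent of the members tested (dark bars) and of all genes tested (grey bars) that were called in each setting, with the number called of the number tested. In 4 settings the share of members is above that of all genes (at least 10 counts in every library, without experiment 2, limma-voom and DESeq2), and in the other 8 it is below.

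Genes of calcium entry and release outside these families were read from the same fit. Of 15 tested genes of store-operated entry and internal calcium release, none was called and 4 (26.7%) had an unadjusted p below 0.05 with a higher level in LRCs, where 8.89% of all genes had. They were *Stim1*, the calcium sensor of the endoplasmic reticulum, with 34.7, 32.4 and 27.5 CPM in LRCs and 17.7, 15.5 and 20.5 CPM in non-LRCs, the inositol trisphosphate receptors *Itpr2* and *Itpr3*, and *Mcoln2*. The adjusted p of these 4 lay between 0.0808 and 0.251.

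Of 19 ion pumps and exchangers, 1 (5.26%) was called, where 1.21% of all genes were. *Slc8a3*, a sodium-calcium exchanger that removes calcium from the cell, was lower in LRCs, with 20.0, 7.50 and 40.3 CPM against 49.7, 29.0 and 113 CPM in non-LRCs. Each pair was lower in LRCs while the groups overlapped, at a log2 fold change of -1.57 ± 0.20 (SE) and an adjusted p of 0.0360 by edgeR. Among 28 other channel genes, which included the P2X receptor, Lrrc8 volume-regulated and Tmem63 families, none was called. *Pkd2* and *Tmem63a* (7.14%) had an unadjusted p below 0.05 with a higher level in LRCs, where 8.89% of all genes had.

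Of 26 genes of calcium signalling, 1 (3.85%) was called, where 1.21% of all genes were. An unadjusted p below 0.05 was found for 8 (30.8%) with a higher and 5 (19.2%) with a lower level in LRCs, against 8.89% and 9.53% of all genes. *Plcb1*, a phospholipase C that produces inositol trisphosphate, was upregulated in LRCs, with 176, 105 and 118 CPM against 82.7, 50.3 and 46.4 CPM in non-LRCs, a log2 fold change of 1.17 ± 0.15 (SE) and an adjusted p of 0.0359 by edgeR. Every LRC library lay above every non-LRC library. *Nfatc1* and *Nfatc2*, transcription factors that calcineurin activates, had adjusted p of 0.181 and 0.120 at higher levels in LRCs, and the calmodulin genes *Calm2* and *Calm3* 0.160 and 0.0808 at lower levels.

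Markers of other cell types were read in the same libraries. The summed levels of 6 endothelial, 6 leukocyte and 4 erythroid markers were at most 5.54 CPM in any library, with the endothelial markers *Cdh5*, *Kdr* and *Emcn* at 0 in all 6. The 5 osteoclast markers summed to 104 to 162 CPM over the 6 libraries, of which *Ctsk* made up 93.8 to 151 CPM, while *Acp5* had at most 8.01 CPM. The 5 markers of smooth muscle and pericytes summed to 457 to 1377 CPM, nearly all of it from *Cspg4* at 453 to 1368 CPM, and *Acta2* had at most 1.92 CPM. Markers of osteoblasts and osteocytes summed to 70.8 to 184 CPM in LRCs and 91.5 to 401 CPM in non-LRCs, with *Sost* at 0. Of the 5 tested, 4 were fitted lower in LRCs, and 2 had an unadjusted p below 0.05 with a lower level. *Dmp1*, the 1 fitted higher, had 3.80, 3.15 and 6.31 CPM in LRCs against 0, 1.83 and 1.55 CPM in non-LRCs. Its groups did not overlap, at an unadjusted p of 0.152 by edgeR.

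Markers of hypertrophic chondrocytes, the enlarged cells at the lower end of the growth plate, had fitted values below 0 for all 5 genes, and 3 of them had an unadjusted p below 0.05, though none was called. *Col10a1*, the collagen that defines these cells, had 1.93, 0.143 and 76.0 CPM in LRCs and 12.2, 15.7 and 264 CPM in non-LRCs, lower in each pair, with a log2 fold change of -2.95 ± 0.69 (SE) and an adjusted p of 0.101 by edgeR. *Ihh* had 0, 0 and 1.09 CPM in LRCs and 0.929, 1.13 and 8.45 CPM in non-LRCs, and *Alpl* had an adjusted p of 0.0748 at a log2 fold change of -0.93. *Mmp13* had 165, 84.0 and 90.4 CPM in LRCs and 78.0, 184 and 266 CPM in non-LRCs. It was thus higher in LRCs in experiment 1 and lower in experiments 2 and 3, at an unadjusted p of 0.313 by edgeR. The sum of the 5 markers, 784 to 1931 CPM in LRCs and 822 to 2165 CPM in non-LRCs, was led by *Spp1*, whose log2 fold change was -0.0035. The part of these cell types in the channel results was not tested.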

How the data were processed

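Members and gene lists were chosen with earlier results of these data known. Libraries were prepared from amplified cDNA (SMART-Seq v4, Nextera XT) without molecular identifiers. The authors aligned single-end reads to mm10 (GRCm38) with TopHat2 2.0.13 and Bowtie2 2.2.1 and counted unambiguous reads per gene with HTSeq. The annotation and strand setting are not given in the sources used here. The deposited raw counts of 23159 genes were the only values used, and the 2 deposited normalized tables, size-factor scaled and rlog, were not used. All count columns were mapped to samples by their labels.

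Differential expression was tested in R 4.3.3 by the quasi-likelihood test of edgeR 4.0.16 after TMM, on genes kept by filterByExpr (at least 10 counts, total at least 15), with the experiment as a block as in the study's paired model. The pairing was checked: deviations of the LRC and non-LRC library of an experiment from their group means correlated across genes with Pearson r of 0.197, 0.288 and 0.336. Intervals (95%) used the moderated standard error. No library was a copy of another, since chi-square per gene was at least 192 for every pair. The labels do not name the animals of each library, so p-values measure the spread between the 3 experiments. CPM were TMM-normalized and log2 CPM differences used a prior count of 2. Alternatives were DESeq2 1.42.0, limma-voom (limma 3.58.1), DESeq2 size factors, other filters, GC content and length offsets, thinning, no block and each experiment left out. Genes named were those called, those with an unadjusted p below 0.05 and the same direction in 3 experiments, those called by DESeq2, and the highest of each class per kb. Some of these genes are not reported here, and figures by gene leave out the sodium channel classes. Exon lengths, coordinates and overlaps were from GENCODE vM21 on GRCm38, where 173 of 175 members matched by current and 2 by older symbol, and 6 of the members tested shared over 10% of exon bases with another gene. RefSeq start windows were found for 132 of the 173 channel subunit genes.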

Additional observations from a re-analysis of the deposited data

How the results depend on the processing

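The count of members called, 1 with the experiment as a block, was 0 without the block, 3 with at least 10 counts in every library, 0 with the block and a correction for GC content and length, 7 by limma-voom and 9 by DESeq2. With each experiment left out it was 0 to 8, the 8 without experiment 2. For the other genes of ion transport and calcium signalling, the count of 2 (*Slc8a3* and *Plcb1*) was 0 without the block, 4 with at least 10 counts in every library, 6 by limma-voom, 7 by DESeq2 and 0 to 8 with each experiment left out. The median log2 fold change of the members tested, -0.00, was -0.23 to 0.075 with each experiment left out. Among all genes the calls went from 166 to 1 without the block, so the pairing decided most of them. Of 279 values of 26 named genes under alternatives, 236 kept both direction and call, 22 passed the threshold as well, 4 of *Cacna1e* no longer did, and 17 turned direction, all with small changes. For *Ano10* these were 0.0098 (GC content and length), 0.029 (limma-voom) and 2 of the values with each experiment left out, -0.21 to 0.055. For *Cacna1c* they were -0.014 (no block), -0.0022 (GC content and length), -0.0087 (thinned), -0.30 (limma-voom) and 1 of -0.21 to 0.65 with each experiment left out. For *Clcn4-2* they were 0.031 (no block), 0.044 (GC content and length), 0.046 (thinned), 0.052 (limma-voom) and 1 of -0.19 to 0.22 with each experiment left out. The remaining 3 came with an experiment left out, where *Cacnb3* had -0.090 (without experiment 3) to 0.37, *Trpc4ap* -0.16 to 0.095 (without experiment 2) and *Trpm7* -0.020 (without experiment 1) to 0.24. The cause was not tested. Genes below about 1 CPM had few counts in the LRC library of experiment 2, where differences were not detectable under 0.143 CPM.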

Other observations

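Of the channel genes under the filter on low counts, 5 lay lower in every LRC library than in any non-LRC library. They included *Ano4*, *Kcna7*, *Kcnj15* and *Kcnn3*. *Kcnn3*, a small-conductance calcium-activated potassium channel, had 0, 0 and 2 counts in LRCs against 154, 12 and 3 in non-LRCs, so that most of its counts came from 1 library. *Ano4* had 2, 0 and 0 counts in LRCs against 10, 30 and 10 in non-LRCs. These genes were chosen after their values were seen, no test was made, and counting error is large at such counts.

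Several channel genes at 3 CPM or more in the other LRC libraries had no count in the LRC library of experiment 2. *Ano2* had 3.80 and 5.59 CPM in the LRC libraries of experiments 1 and 3, *Clcn6* 5.41 and 3.47 CPM and *Kcnh1* 6.70 and 5.72 CPM, where a count of 0 allowed up to 0.143 CPM. In the non-LRC library of experiment 2 the same genes had 5.92, 2.57 and 4.03 CPM. The reverse also occurred in that library, since *Kcna2* had 10.2 CPM there and 0.882 and 0.279 CPM in the other LRC libraries, and *Cacna1d* had 4.68 CPM there and 0.651 and 0.140 CPM in the others. These genes were chosen after their values were seen.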
